A study of Mus musculus with 6 samples.

Results

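Mast cells and basophils were followed through 10 genes that mark their identity, in the larger proximal airways of Foxp1 and Foxp4 mutant mice and their controls. The genes were Cpa3, Mcpt4, Mcpt8, Tpsb2, Tpsab1, Cma1, Kit, Ms4a2, Fcer1a and Gata2, and all 10 had exactly 1 probe set that named them, among 19938 genes measured. The tested mice were Scgb1a1-cre:Foxp1flox/flox:Foxp4flox/flox mutants and the controls carried Scgb1a1-Cre alone, with 3 arrays per genotype. All mice were 9 weeks old, of mixed C57BL/6 and 129X1 background, and both groups therefore shared the Cre transgene. Its Scgb1a1 promoter is active in club cells, secretory cells of the airway lining, so mast cells and basophils were not its target. Airways were dissected with forceps and scissors from stained frozen lung sections, and the RNA was amplified and hybridised to 1 array per sample. Nothing in the labels ties each sample to its own mouse, and the p-values therefore cover only the sample-to-sample spread, part of which may be technical. The comparison asked whether these cells were present at equal level in mutant and control airways.

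Mast cells are tissue-resident cells that store proteases and histamine in granules and release them when IgE on their surface meets its antigen. In mice they lie mainly in the wall of the trachea and large airways and are sparse in peripheral lung. Basophils are circulating relatives that share the IgE receptor and histamine. Connective tissue mast cells of the mouse hold the chymases encoded by Mcpt4 and Cma1, the tryptase encoded by Tpsb2 and the carboxypeptidase encoded by Cpa3, whereas mucosal mast cells hold those encoded by Mcpt1 and Mcpt2, and Mcpt8 encodes a basophil protease.

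Foxp1 read 9.24, 9.34 and 9.31 in mutants, against 9.42, 9.62 and 9.55 in controls, and Foxp4 read 8.41, 7.77 and 8.49 in mutants, against 8.77, 9.01 and 8.95 in controls. Both were lower in every mutant array without passing limma's test (adjusted p = 0.444 and 0.339). Over all genes, groups did not overlap for 15.0%, in either direction. Where the probe sets lie relative to the floxed exons was not examined, and other cells keep both genes. These values therefore check the labels only in part. Control 1 stood apart from its group, with a mean correlation across genes of 0.981 with the mutants and 0.975 with the other controls, which correlated at 0.992 with each other.

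None of the 10 genes passed the test between genotypes, in either direction. In limma, fitted over all genes with Benjamini-Hochberg adjustment, 0 of 10 reached an adjusted p under 0.05, against 0.266% of all genes. At an unadjusted p under 0.05 the count was also 0, against 10.1% of all genes, and no member had groups that did not overlap, against 15.0%. The log2 differences, mutant minus control, ran from -0.12 for Mcpt4 to 0.15 for Cma1, with 6 above and 4 below 0. Their median was 0.03, beside 0.02 over all genes. With single arrays left out the count of calls was again 0 each time, and the median ran from -0.058 without control 2 to 0.14 without control 1. In pieces of whole airway wall, fewer cells of a type and less RNA per cell cannot be told apart. A difference that does not pass does not show equal levels, and the 95% intervals of limma say what the arrays leave possible. For 8 of the 10 genes the interval stayed within a 2-fold change either way, and for 7 within 1.5-fold. These bounds hold for the deposited log2 values, and RMA, which the submitters name, is known to compress differences of dim probe sets. For 8 members the mean over the arrays lay below 6 on the log2 scale, where array medians were 5.89 to 5.95 and lower quartiles 4.42 to 4.50, and it is not known which probe sets exceeded background. Only Kit and Gata2 had means above the upper quartiles of 7.83 to 7.89.

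**Figure D1:**
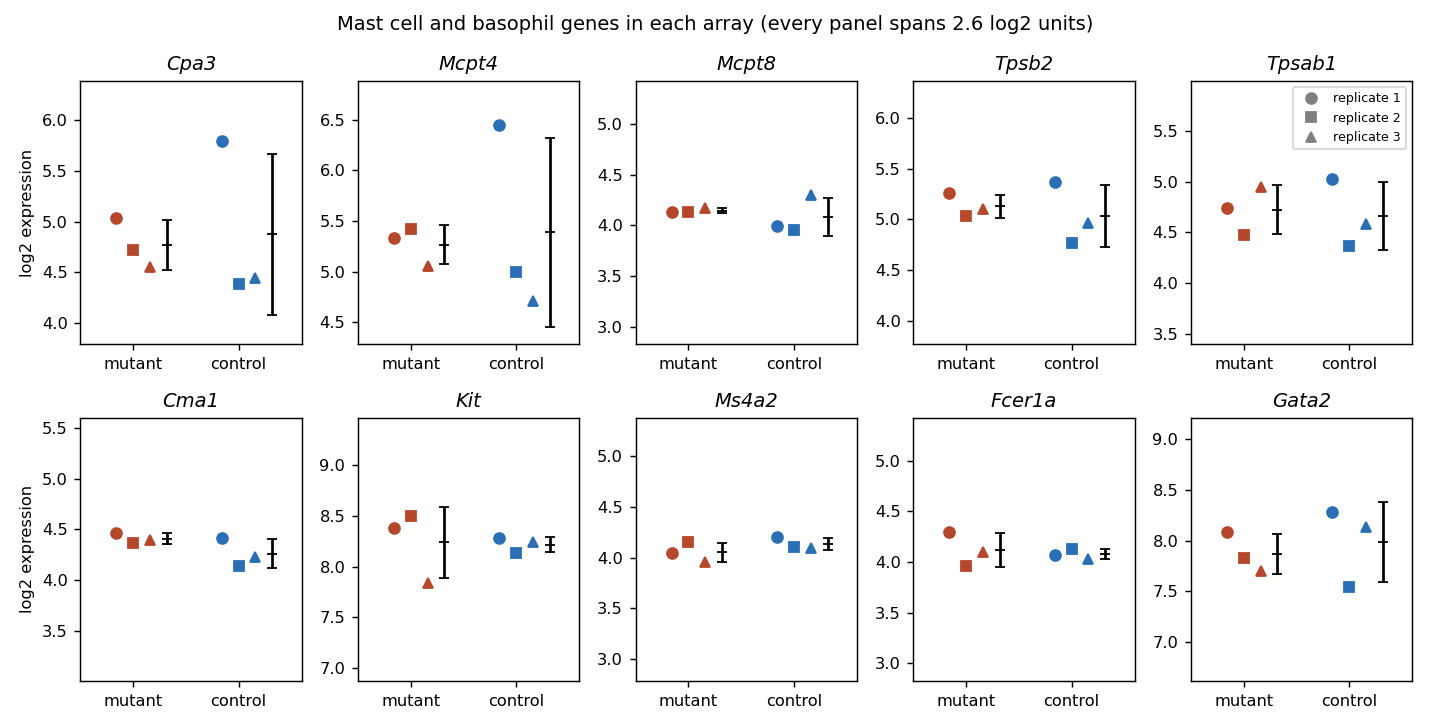
Log2 expression of each identity gene in every array, mutants on the left and controls on the right of each panel. Symbols are arrays, bars are the mean and SD of 3 arrays, and every panel spans the same height. Cpa3 and Mcpt4 stand out by control 1, at 5.79 and 6.45, while the points of the IgE receptor genes Ms4a2 and Fcer1a and of Mcpt8 lie within 0.34 of each other.

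Among the granule proteases, Cpa3 and Mcpt4 varied most, and that variation lay among the controls. Cpa3, the mast cell carboxypeptidase, read 5.04, 4.72 and 4.55 in mutant airways, against 5.79, 4.38 and 4.45 in control airways. Control 1 was the highest of the 6 arrays, controls 2 and 3 were the lowest, and the mutants lay between them. The log2 difference was -0.11 (SE 0.38, 95% interval -1.03 to 0.82, limma adjusted p = 0.964). Mcpt4, a chymase of connective tissue mast cells, read 5.33, 5.42 and 5.05 in mutants, against 6.45, 5.002 and 4.72 in controls. The order was the same, with control 1 above and controls 2 and 3 below every mutant array. Its log2 difference was -0.12 (SE 0.44, 95% interval -1.17 to 0.93, limma adjusted p = 0.964). Control 1 exceeded the mean of the other controls by 1.38 for Cpa3 and by 1.59 for Mcpt4. Without control 1 the differences turned to 0.35 for Cpa3 (95% interval -0.03 to 0.74) and 0.41 for Mcpt4 (0.03 to 0.79), and limma's adjusted p was 0.405 and 0.312. With array weights, which give arrays unequal influence, they were also positive, at 0.09 and 0.16.

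The sequences before the starts of Cpa3 and Mcpt4 are shown because both genes placed control 1 above and controls 2 and 3 below all mutants. Each is the 250 bases before the start, from RefSeq on GRCm38.p6, minus strand, with every GATA and its reverse complement TATC in capitals. GATA is the core letters read by GATA factors, among them the product of the member Gata2. The Cpa3 window lies at chr3:20242182-20242431 and the Mcpt4 window at chr14:56062311-56062560.
Cpa3: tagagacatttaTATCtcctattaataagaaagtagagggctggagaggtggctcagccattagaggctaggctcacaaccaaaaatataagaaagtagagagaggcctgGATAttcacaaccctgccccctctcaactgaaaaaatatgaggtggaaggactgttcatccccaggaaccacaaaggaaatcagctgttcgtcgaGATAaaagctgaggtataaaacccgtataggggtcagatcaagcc
Mcpt4: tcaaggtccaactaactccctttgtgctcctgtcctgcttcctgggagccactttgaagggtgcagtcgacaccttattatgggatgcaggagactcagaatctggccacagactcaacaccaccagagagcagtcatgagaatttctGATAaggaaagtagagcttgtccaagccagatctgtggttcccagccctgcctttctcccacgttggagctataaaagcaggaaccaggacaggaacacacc
Capitals stand at 3 places in the Cpa3 window and at 1 in the Mcpt4 window, where the median over all windows was 1. Of the other members, Ms4a2 had 5 such places, Cma1 3, Fcer1a 2 and Mcpt8 1. Promoter sequences were found for 8 members, in 10 windows. GATA on either strand occurred in 6 of the 10 windows, in none of those of Kit and Gata2, and in 53.62% of the 32851 promoter windows of all genes. TATAAA on either strand, the letters of a TATA box, occurred in 3 of the 10 windows, those of Cpa3, Mcpt4 and Fcer1a, and in 12.37% of all windows. These matches describe letters and are not measured binding.

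The tryptases and the other chymase varied less. Tpsb2, which encodes the tryptase also called mMCP-6, read 5.26, 5.03 and 5.10 in mutants, against 5.37, 4.77 and 4.96 in controls. Control 1 was highest and control 2 lowest, so that the groups overlapped, and the log2 difference was 0.10 (SE 0.16, limma adjusted p = 0.915), or 0.26 without control 1 (adjusted p = 0.404). Tpsab1, the gene of the related tryptase mMCP-7, read 4.74, 4.47 and 4.95 in mutants, against 5.03, 4.37 and 4.58 in controls, a difference of 0.06 (SE 0.20), or 0.25 without control 1 (limma adjusted p = 0.596). RefSeq lists Tpsab1 as a transcribed pseudogene in the C57BL/6J assembly, and the labels do not say which allele each mixed-background mouse carried. Cma1, a chymase also called mMCP-5, read 4.47, 4.37 and 4.40 in mutants, against 4.42, 4.14 and 4.23 in controls. Only control 1 reached into the range of the mutants. Its log2 difference of 0.15 (SE 0.098, 95% interval -0.09 to 0.38, limma adjusted p = 0.687) had the smallest p among the 10 genes, and it was 0.23 without control 1 (adjusted p = 0.361). The basophil protease gene Mcpt8 read 4.13, 4.13 and 4.17 in mutants, against 4.00, 3.95 and 4.30 in controls, a difference of 0.06 (SE 0.11, limma adjusted p = 0.917). The values of Cma1 lay near or under the arrays' lower quartiles of 4.42 to 4.50, and those of Mcpt8 under them. Probe sets of related genes can share signal, which was not tested.

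Values of neighbouring genes on the chromosome were set beside those of the members. Several of these genes, Mcpt1 and Mcpt8 among them, lay under the arrays' lower quartiles of 4.42 to 4.50. A small range there says little about whether variation was shared along the chromosome. Cma1, Mcpt4 and Mcpt8 stand in the chymase cluster on chromosome 14, where RefSeq places 17 genes and pseudogenes from Cma1 to the granzyme gene Gzmb, 13 of them measured. Of these, 0 were called and 2 ranged over at least 1 log2 unit across the arrays, Mcpt4 and Mcpt2, while the other ranges were at most 0.484. Mcpt2, a chymase of mucosal mast cells, owed its range to control 2: it read 3.85, 3.73 and 3.87 in mutants, against 3.98, 4.82 and 3.76 in controls. Mcpt1, its mucosal neighbour, stayed between 3.87 and 4.02. Control 1 was the highest array for 2 of the 13, Mcpt4 and Gzmg, beside 20.3% of all genes. In the tryptase cluster on chromosome 17, from Prss34 to Tpsg1, all 6 genes were measured, 0 were called and control 1 was highest for 3, Tpsb2, Tpsab1 and Tpsg1.

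The receptor genes did not pass either. Fcer1a, the IgE-binding chain of the receptor, read 4.29, 3.96 and 4.10 in mutants, against 4.07, 4.13 and 4.03 in controls, a log2 difference of 0.04 (SE 0.11). Ms4a2, the receptor's signal-amplifying beta chain, read 4.05, 4.15 and 3.96 in mutants, against 4.21, 4.10 and 4.09 in controls, a difference of -0.08 (SE 0.087). Both sit under the lower quartile of the arrays, and neither passed (limma adjusted p = 0.946 and 0.838). Kit, the receptor for stem cell factor that mast cells need to survive, read 8.38, 8.50 and 7.84 in mutants, against 8.28, 8.14 and 8.24 in controls. Mutant 3 was the lowest array and mutants 1 and 2 the highest, with a difference of 0.02 (SE 0.18, 95% interval -0.40 to 0.45, limma adjusted p = 0.981). Kit also marks melanocytes, whose 7 measured markers had array means of 5.05 to 5.12 in mutants and 4.99 to 5.23 in controls.

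Gata2, the transcription factor that mast cells and basophils depend on, read 8.09, 7.83 and 7.70 in mutants, against 8.29, 7.54 and 8.14 in controls. The lowest and the highest array were both controls, and the difference was -0.12 (SE 0.21, 95% interval -0.63 to 0.39, limma adjusted p = 0.920). Without control 1 it was 0.03 (adjusted p = 0.973). Endothelial cells use Gata2 too. The mean of their 12 markers was 8.87, 9.09 and 8.43 in mutants, against 9.11, 8.46 and 8.86 in controls, with 0 called and a median log2 difference of 0.00. Control 1 was highest and control 2 low in both. The part of endothelium in the Gata2 and Kit signal was not tested.

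**Figure D2:**
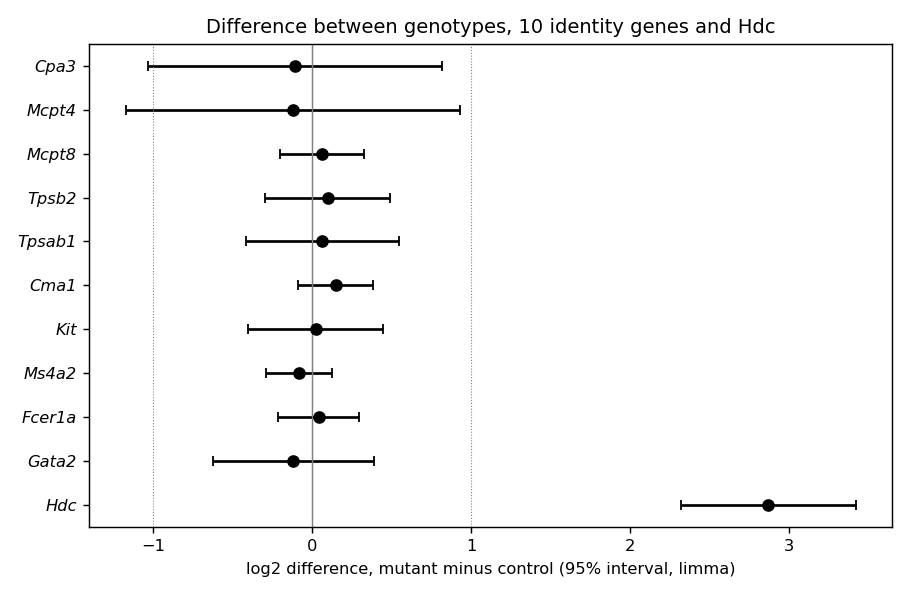
Log2 difference, mutant minus control, of the 10 identity genes and of Hdc, with limma's 95% intervals from 3 arrays per group; dotted lines mark a 2-fold change. All 10 intervals of the identity genes include 0, those of Cpa3 and Mcpt4 are the widest, and that of Hdc runs from 2.32 to 3.42.

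Hdc, the enzyme that makes histamine and a classical product of both cell types, did not follow the identity genes. It read 10.9, 10.1 and 10.9 in mutant airways, against 7.71, 7.61 and 7.97 in control airways. Every mutant array was above every control, by a log2 difference of 2.87 (SE 0.23, limma adjusted p = 0.0129). The lower bound of its interval, 2.32, lay above the highest upper bound among the identity genes, 0.93 for Mcpt4, but the difference between these genes was not itself tested. Without mutant 1, mutant 3, control 2 or control 3 the difference was 2.74, 2.73, 2.79 and 2.97, and the call on Hdc was lost, with adjusted p of 0.0758, 0.0748, 0.0755 and 0.0808. It was also lost with the replicate number as a block (difference 2.87, adjusted p = 0.0724), and stood without control 1 (0.0146) or mutant 2 (0.0045). In the list of granule and mediator genes outside the identity genes, Hdc was the only one of 15 measured to pass, 6 had differences below 0 without a call, and the list's median was 0.01. The genes next by p did not pass: Prss34, a basophil tryptase (log2 difference 0.31, adjusted p = 0.435), Hpgds, which makes prostaglandin D2 (0.49), Srgn, the granule proteoglycan core serglycin (-0.36), and Tph1, which starts serotonin synthesis (0.13). Prss34 read 5.82, 5.63 and 5.72 in mutants, against 5.39, 5.26 and 5.59 in controls, so its groups did not overlap. Of the 15 genes, 5 did not overlap, all with mutants higher, among them Hdc, Prss34, Hpgds and Tph1. Over all genes 15.0% did not overlap, in either direction.

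Other receptors of these cells gave no call among 14 measured, with a median log2 difference of 0.06. Il18r1, an interleukin-18 receptor chain, stood at 0.44 (adjusted p = 0.433), Cd63, a granule membrane protein exposed on degranulation, at 0.19, Il3ra, the alpha chain for interleukin-3, at -0.31, and Csf2rb2, its beta chain in the mouse, at -1.01. The mast cell receptor genes Mrgprb1 and Mrgprb2 stood at 0.08 and 0.05. Growth factors and lineage regulators likewise gave 0 calls of 18, with a median of -0.01. Gata3 was at -0.50 (adjusted p = 0.212), Stat5a at -0.29, Tslp, an epithelial cytokine, at 0.31, and Kitl, which encodes the ligand of Kit, at 0.37. Kitl read 9.05, 9.18 and 8.92 in mutants, against 9.07, 8.27 and 8.71 in controls, with control 1 among the mutants. Gata3 fell past the threshold with array weights (-0.62, adjusted p = 0.0420) and without control 1 and mutant 2 together, a setting chosen after seeing the data (-0.61, adjusted p = 0.0474).

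Genes of IgE receptor signalling had mostly negative differences, and 0 of the 13 measured passed. Their median log2 difference was -0.88 and 11 were below 0, beside a median of 0.02 over all genes. Plcg2, a phospholipase, was at -1.16 (adjusted p = 0.433), the kinase gene Fyn at -0.57 and the phosphatase gene Inpp5d at -0.88, while the adaptor gene Gab2 was at 0.59 (adjusted p = 0.277). The kinase gene Syk read 6.53, 7.01 and 6.46 in mutants, against 6.59, 8.02 and 8.08 in controls, so that control 1 lay with the mutants. Lymphocytes use most of these genes too. The mean of 9 B and plasma cell markers was 5.84, 7.70 and 6.08 in mutants, against 6.37, 9.33 and 9.18 in controls, and all 9 were below 0 without a call. The mean of 8 T and NK cell markers was 5.82, 6.48 and 5.80, against 6.09, 7.53 and 7.41, with 7 below 0. Fcer1g, the receptor's gamma chain, also found in many myeloid cells, differed by -0.29 and did not pass; single arrays moved this from -0.62 without mutant 2 to -0.12 without mutant 3, and it passed at -0.71 without control 1 and mutant 2 together (adjusted p = 0.0208). Without control 1, Lat (-1.77), Plcg2 (-1.62), Ptpn6 (-1.36) and Syk (-1.38) passed as lower, in a fit that called 1.95% of all genes, 271 of its 388 calls being lower. The part of lymphocytes in these values was not tested.

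**Figure D3:**
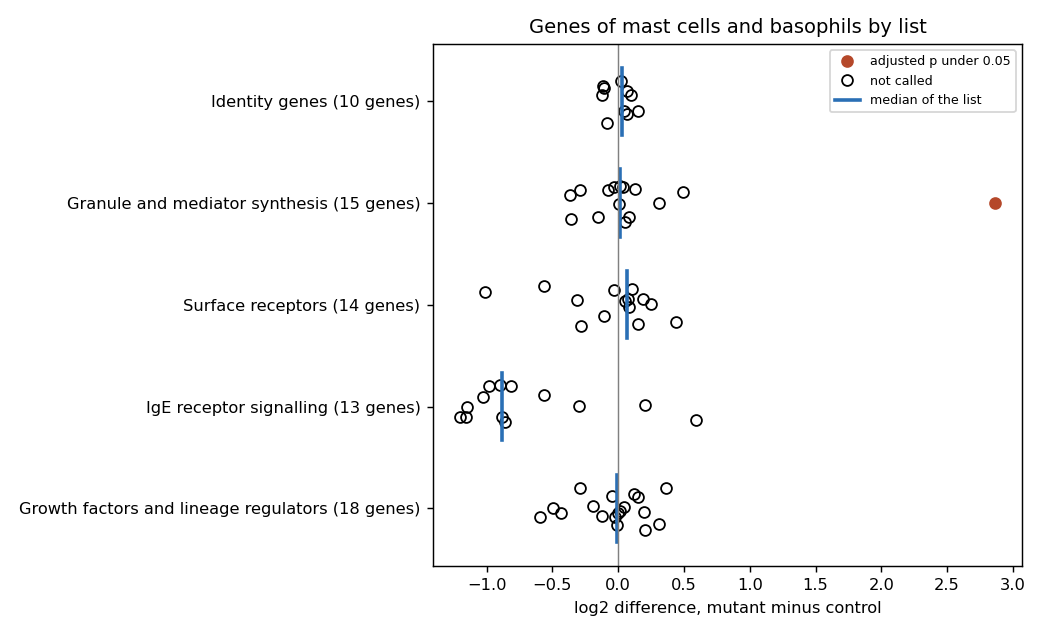
Log2 difference, mutant minus control, of each gene, grouped into the identity genes and the other lists; open circles did not pass, the filled circle is Hdc at 2.87, and the vertical bars are list medians. Identity genes lie between -0.12 and 0.15, and the IgE signalling list has its median at -0.88.

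Averaged, the mast cell granule proteases followed Cpa3 and Mcpt4, which varied most among them. The mean of Cpa3, Mcpt4, Tpsb2, Tpsab1 and Cma1 was 4.97, 4.80 and 4.81 in mutants, against 5.41, 4.53 and 4.59 in controls. In that mean control 1 was highest, the mutants came next and controls 2 and 3 were lowest. Cma1 by itself was highest in mutant 1, and for Tpsab1 control 3 lay above mutant 2. For 6 of the 10 identity genes control 1 was the highest array, which was so for 20.3% of all genes. Control 1 led the next array by 1.03 for Mcpt4 and 0.76 for Cpa3. For Gata2, Tpsb2, Tpsab1 and Ms4a2 it led by only 0.06 to 0.15. Markers of fat and heart muscle, tissues that adjoin large airways and pulmonary veins, were also highest there: control 1 led for 6 of 7 adipocyte genes and for 7 of 8 cardiac genes. The mean of the adipocyte genes was 7.38, 8.29 and 7.07 in mutants, against 9.21, 6.72 and 7.36 in controls, and that of the cardiac genes 10.1, 11.3 and 8.65, against 11.6, 9.16 and 9.85. In both lists mutant 2 was the next highest array. It was so for Mcpt4 too, at 5.42, but for Cpa3, Tpsb2 and the protease mean mutant 1 came next. Control 1 led for 5 of 7 cartilage genes, 6 of 12 endothelial genes and 3 of 7 smooth muscle genes, but for 0 of 9 airway epithelial genes, and the part of adjoining tissue in the protease values was not tested. The airway epithelium was plainly present, with means of its 9 markers of 10.49 to 10.98 in mutants and 10.44 to 10.75 in controls.

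**Figure D4:**
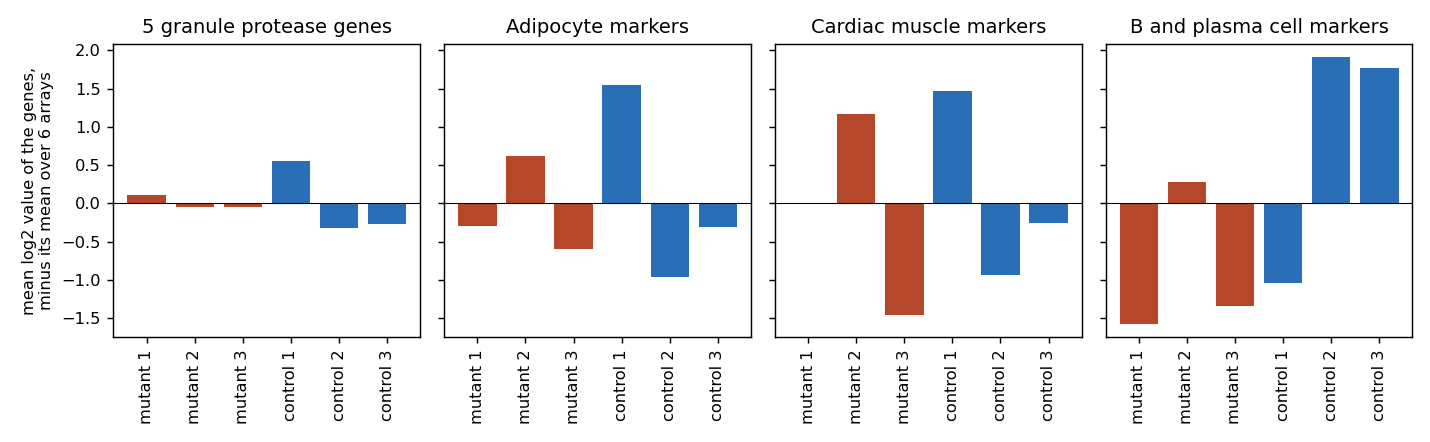
Mean log2 value of 5 granule protease genes and of 3 marker lists in each array, each minus its mean over the 6 arrays, mutants left of controls. The protease bars are highest in control 1, as are the adipocyte and cardiac bars, whereas the B and plasma cell bars are highest in controls 2 and 3.

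Beyond the 10 genes, those whose pattern over the 6 arrays was most like the protease mean were Palld, Id1, Ackr3, Cdr2 and Ccl24. Likeness was the root mean square difference between mean-centred log2 values, which was 0.09 for Palld, 0.09 for Id1, 0.09 for Ackr3, 0.10 for Cdr2 and 0.11 for Ccl24, among 1817 genes whose values ranged over at least 1 log2 unit. Each was highest in control 1, which follows from their choice, since the protease mean they were matched to was highest there. Palld, for example, read 7.65, 7.56 and 7.47 in mutants, against 8.30, 7.32 and 7.20 in controls. Ccl24, an eosinophil-attracting chemokine gene, read 5.29, 5.37 and 5.40 in mutants, against 6.02, 4.98 and 4.97 in controls. Control 1 was highest for 1 of 5 eosinophil markers, beside 20.3% of all genes. That marker, Epx, read 4.28, 4.33 and 4.30 in mutants, against 4.46, 4.17 and 4.27 in controls. Its values lay near or under the arrays' lower quartiles of 4.42 to 4.50, and the other markers were highest in other arrays. Whether eosinophils shared the pattern was not tested.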

How the data were processed

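Gene expression was measured on 6 single-sample mouse gene arrays. The authors deposited log2 values, 1 per probe set and array, and per the submitters' processing notes oligo, RMA and limma were used. Tool versions and the genome build: not given in the sources used here. No raw scans, detection p-values or scan dates entered, so neither background nor batch could be tested. Array pairs correlated at 0.972 to 0.993 across genes. Precision is limited by 3 arrays per group.

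Of 35556 rows, 21789 carried a single gene symbol in the platform annotation, 1621 several and 12146 none. The gene identifier of 21698 was in the RefSeq table. The row with the highest mean was used per gene. Groups were compared with limma 3.58.1 in R 4.3.3 (lmFit, eBayes, genotype as the only term, two-sided, no filter), adjusted by Benjamini and Hochberg over 19938 genes with a threshold of 0.05. The procedure was tested on simulated data. Promoter sequences were matched by symbol for 8 of the 10 members. Tables were made with Python 3.11.15 and pandas 2.3.3, figures with matplotlib 3.10.9.

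The members and lists were chosen with earlier results of these data known. Named genes were Foxp1, Foxp4, all members, and from each list those that passed plus up to 4 by smallest p. Mrgprb1, Mrgprb2, Syk, Fcer1g, Lat, Ptpn6, Mcpt1, Mcpt2, Gzmg, Tpsg1 and Epx were named after their values were seen. The closest patterns were the 5 with the smallest root mean square difference, leaving out predicted transcripts. Alternatives were other scalings, a filter, array weights, a replicate block, averaging the rows of a gene, other eBayes settings and leaving out each array. Settings that left out a pair of arrays were chosen after seeing the data.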

Additional observations from a re-analysis of the deposited data

How the results depend on the processing

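The filter left out the lowest 40% of genes and kept only 2 of the members, Kit and Gata2. In 152 refits of single identity genes, none passed limma's test and 24 changed sign. All such changes were of differences that had not passed: with array weights Cpa3 (0.088), Mcpt4 (0.16), Mcpt8 (-0.026) and Kit (-0.15); without controls 2 and 3 together Tpsb2 (-0.24), Tpsab1 (-0.30), Cma1 (-0.0069) and Kit (-0.037); without control 1 and mutant 2 together Cpa3 (0.38), Mcpt4 (0.33), Kit (-0.075) and Gata2 (0.052). With single arrays left out, log2 differences ranged from -0.35 to 0.35 for Cpa3, -0.46 to 0.41 for Mcpt4, -0.00063 to 0.17 for Mcpt8, -0.036 to 0.26 for Tpsb2, -0.081 to 0.25 for Tpsab1, -0.11 to 0.22 for Kit, -0.046 to 0.12 for Fcer1a and -0.34 to 0.030 for Gata2. Ms4a2 kept its sign throughout. The members' median moved to -0.20 without controls 2 and 3, a fit in which the lone control is assumed to vary like the mutants.

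Of 60 other mast cell and basophil genes 1 was called, Hdc. The count was 0 with the replicate block and without controls 2 and 3, 2 with array weights, 18 without control 1 and mutant 2, and 0 to 5 with single arrays left out. Besides Hdc these calls were all lower: Gata3 with array weights, 4 without control 1 and 17 without control 1 and mutant 2, of which 4 and 11 were IgE signalling genes. Over all genes the 53 calls became 0 with the replicate block, 291 with array weights, 82 with an intensity trend, 0 without controls 2 and 3, 963 without control 1 and mutant 2, and 9 (without control 2) to 388 (without control 1) with single arrays left out. The cause was not tested. The labels do not say whether the replicate numbers pair the samples. Deviations of same-numbered samples correlated at 0.14, -0.09 and -0.04, and those of differently numbered samples at -0.20 to 0.18. With 3 arrays per group these values cannot settle whether samples were paired. With the replicate block Hdc had a limma adjusted p of 0.0724. Signal over background is unknown, which limits what the dim probe sets can show.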
